A study of Mus musculus with 6 samples.

Results

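The collagen prolyl and lysyl hydroxylases were followed in mouse macrophages by RNA sequencing. The group comprised 7 of the 26778 genes in the authors' deposited table. They were the prolyl 4-hydroxylase genes P4ha1, P4ha2, P4ha3 and P4hb and the lysyl hydroxylase genes Plod1, Plod2 and Plod3, taken by gene symbol. The family was chosen by the genotype differences that its members show in that table. The cells were bone marrow-derived macrophages, that is, macrophages grown from the leg marrow of C57BL/6 mice with a conditioned medium. On day 7 of culture they were placed in starvation medium at 2% oxygen for 6 h. A group of 3 libraries came from wild type mice (Flt-1+/+, also written VR1+/+) and a group of 3 from Flt-1 heterozygotes (Flt-1+/-, VR1+/-). Flt1 encodes VEGF receptor 1. All 6 libraries had the same challenge, so the comparison is between genotypes under hypoxia and starvation, and induction by hypoxia itself is not measured here. Whether separate animals gave the 3 libraries of a genotype is not in the labels, so each p-value reflects variation among libraries that may be technical in part.

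Collagen chains are modified inside the endoplasmic reticulum before they fold into a triple helix. Prolyl 4-hydroxylase is a tetramer of catalytic alpha subunits, encoded by P4ha1, P4ha2 or P4ha3, and beta subunits, encoded by P4hb. Its 4-hydroxyproline keeps the triple helix stable at body temperature. The beta subunit is protein disulfide isomerase, which also works alone as a folding enzyme. Lysyl hydroxylases, encoded by Plod1, Plod2 and Plod3, make the hydroxylysine used in collagen cross-links and sugar attachment. Plod1 acts mainly on lysines of the helix, Plod2 on those of the telopeptides, and Plod3 also carries glycosyltransferase activity. All the hydroxylases need oxygen, iron, 2-oxoglutarate and ascorbate. P4ha1, P4ha2, Plod1 and Plod2 are known in fibroblasts and other cells as genes induced by hypoxia through hypoxia-inducible factors (HIF). Macrophages make little fibrillar collagen but do make other proteins with collagen-like helices, among them C1q and the scavenger receptors Msr1 and Marco.

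HIF binds a core written ACGTG or GCGTG. RefSeq promoter windows, 250 bases before to 50 bases after a start site on build GRCm38.p6, were held for 6 of the 7 genes, all but Plod2. The windows of P4ha1, P4ha2 and Plod1 are shown 5′ to 3′ on the gene's strand, because the first 2 of these HIF-linked genes fell in the heterozygote libraries and the third did not. The P4ha2 window is set on a RefSeq start that lies inside the annotated gene. Capitals mark ACGTG or GCGTG on either strand, so that CACGT and CACGC in capitals are the same letters read from the other strand.
P4ha1 (chr10:59323046-59323345, plus strand): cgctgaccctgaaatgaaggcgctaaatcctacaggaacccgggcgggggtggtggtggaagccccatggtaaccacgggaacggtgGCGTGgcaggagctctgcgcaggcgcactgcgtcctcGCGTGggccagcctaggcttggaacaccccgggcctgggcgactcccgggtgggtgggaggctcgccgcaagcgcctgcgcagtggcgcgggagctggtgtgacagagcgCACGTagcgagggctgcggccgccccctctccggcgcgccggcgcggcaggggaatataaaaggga
P4ha2 (chr11:54100674-54100973, plus strand): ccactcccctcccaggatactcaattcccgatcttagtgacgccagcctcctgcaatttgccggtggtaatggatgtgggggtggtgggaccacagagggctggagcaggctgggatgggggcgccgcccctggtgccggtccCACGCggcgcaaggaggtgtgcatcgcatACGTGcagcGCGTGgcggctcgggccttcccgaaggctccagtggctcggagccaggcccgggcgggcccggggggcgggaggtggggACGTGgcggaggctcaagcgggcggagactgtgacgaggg
Plod1 (chr4:147936727-147937026, minus strand): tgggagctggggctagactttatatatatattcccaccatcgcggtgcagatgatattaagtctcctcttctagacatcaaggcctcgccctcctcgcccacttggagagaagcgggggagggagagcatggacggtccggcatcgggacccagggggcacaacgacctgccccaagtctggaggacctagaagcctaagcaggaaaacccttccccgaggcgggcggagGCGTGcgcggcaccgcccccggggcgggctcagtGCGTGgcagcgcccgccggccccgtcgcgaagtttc

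The P4ha1 window held 3 matches, 1 of them ACGTG, and the P4ha2 window held 4, of which 2 were ACGTG. Plod1 had 2 matches, both GCGTG. The window of P4hb held 3 matches, 2 of them ACGTG, that of Plod3 held 4, 1 of them ACGTG, and that of P4ha3 held 0. Among 32851 windows of this length, 43.8% held at least 1 match, 8.93% at least 3 and 3.86% at least 4, and 19.6% held at least 1 ACGTG. No pair of matches in the windows of these genes overlapped. Matches therefore stood in windows of genes that fell and of Plod1, which did not. A match is a description of letters and not evidence that a factor bound there.

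**Figure D1:**
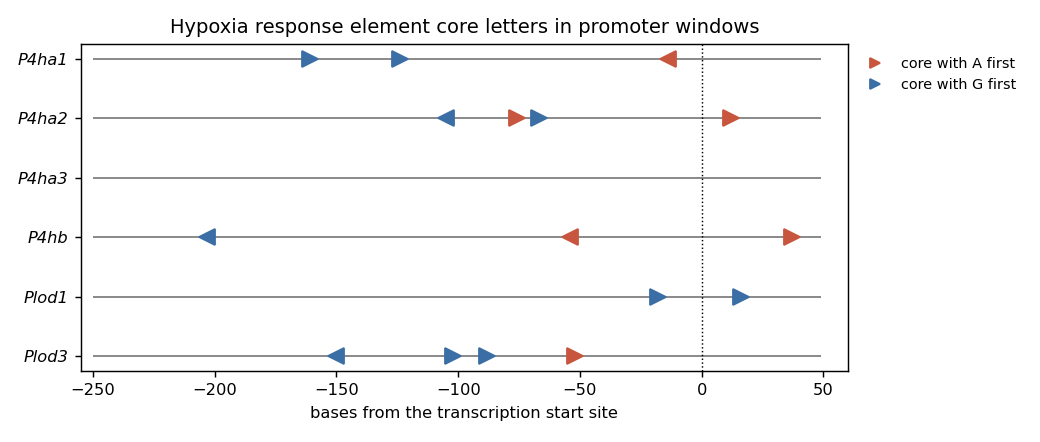
Positions of the HIF core letters in the RefSeq promoter windows of 6 collagen hydroxylase genes, in bases from the transcription start site (0, dotted line). Arrowheads give the strand and colours the first letter of the core; P4ha2 and Plod3 hold 4 matches each and P4ha3 holds 0.

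The deposited table gives a mean normalized count per group, that is, read counts divided by a library size factor. Whole reads per library were recovered from these means for 26316 genes (98.3%), including 6 of the 7 hydroxylases. Within a genotype they are lettered A to C by decreasing size factor, which does not tie them to replicate numbers. Over the genes with recovered counts they held 14318077 to 23351826 reads, lowest in heterozygote C. Flt1 had 4 to 11 reads per wild type library and 6 to 21 per heterozygote library, and the authors' deposited table lists an adjusted p of 0.641, so it does not check the genotype labels. The libraries differed in another way across genotype: mt-Co2, a mitochondrial gene, was listed at 0 in wild type C and heterozygote B and C, and stood at 4070 to 4751 normalized counts in the other 3. Values within each of these library sets, those with mt-Co2 reads first, are given beside each hydroxylase with recovered counts. They were not computed for the related lists, whose calls with the library set as a term are given with the alternatives. Of 10 macrophage markers, all were present, with Adgre1 and Lyz2 the highest. In the authors' deposited test 4 of the 10 fell and 0 rose, against 3.52% lower and 2.51% higher over all genes. The 4 were Csf1r, Cd68, Cd63 and Mrc1. Of those not called, Lyz2, Mertk and Fcgr1 had higher means in the heterozygote group, and Adgre1, Itgam and Cd14 lower means. The group means of all 10 summed to 833723 normalized counts in wild type and 783983 in the heterozygote group, with Lyz2 at 441691 and 458049 and Adgre1 at 294266 and 258965. Library values were recovered for 6 of the 10, and Lyz2 and Adgre1 were among those without them. The 6 summed to 33501 to 39261 normalized counts in wild type and 21889 to 27141 in heterozygote libraries. The part of cell makeup in the results was not tested. In such bulk samples fewer cells of a type and less RNA per cell cannot be told apart.

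Because genotype values chose the members, the genotype comparisons that follow are descriptions, and nothing is read from the counts of members called. Among 6 hydroxylases with an adjusted p in the authors' deposited table, 3 had a value of at most 0.05, namely P4ha1, P4ha2 and Plod3, all lower in the heterozygote libraries. Over all 15789 genes with an adjusted p the share was 6.04%, with 3.52% lower and 2.51% higher. limma on the recovered counts called 2 of the 5 hydroxylases it could test, P4ha1 and P4ha2, both lower. Over its 15106 genes it called 2.22%, with 1.39% lower and 0.827% higher. No hydroxylase was called higher by either test. Across the 6 hydroxylases with recovered counts, genotype groups did not overlap for P4ha1, P4ha2, Plod2 and Plod3. Of all genes tested by limma, 23.6% had groups that did not overlap, 12.3% with the heterozygote lower and 11.2% with it higher.

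P4ha1 is the main catalytic alpha subunit in most tissues. The gene spans chromosome 10 from 59323296 to 59373304 on the plus strand (ENSMUSG00000019916, build mm10). Its normalized counts were 6029, 5907 and 5868 in wild type A, B and C, and 2775, 2577 and 2443 in heterozygote A, B and C. Every heterozygote library lay below every wild type library, and the gap was many times the SD of 84.1 in wild type and 167 in heterozygote libraries (n = 3 each). P4ha1 fell to 43.8% of its wild type mean, and the authors' deposited table lists a log2 fold change of -1.14 ± 0.10 (SE) at an adjusted p of 2.19e-27. The limma log2 difference was -1.19 ± 0.08 (SE; adjusted p 0.00185). The difference was -1.10 within the libraries with mt-Co2 reads and -1.23 within those without, on the log2 scale.

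P4ha2 encodes a second alpha subunit, known from cartilage and endothelium as well as hypoxic cells. Its position is chromosome 11 from 54100095 to 54131665 on the plus strand (ENSMUSG00000018906). Wild type A, B and C had 443.8, 391 and 382 normalized counts. The heterozygote libraries had 84.0, 124 and 79.2 in A, B and C. The groups lay far apart, with the highest heterozygote value in library B. The mean fell to 23.6% of wild type, from 406 ± 33.4 to 95.8 ± 24.8 (SD, n = 3 each). The authors' deposited table lists a log2 fold change of -1.74 ± 0.19 (SE; adjusted p 2.41e-17), closer to 0 than the ratio of the means, -2.07. The limma value was -2.10 ± 0.20 (SE; adjusted p 0.00718). Within the library sets the log2 difference was -2.30 and -1.94.

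P4ha3, the third alpha subunit gene, was close to absent. It sits on chromosome 7 from 100285520 to 100319699 on the plus strand (ENSMUSG00000051048). It had 2, 1 and 2 reads in wild type A, B and C and 2, 3 and 6 reads in heterozygote A, B and C. The groups overlapped, the table holds no adjusted p for it, and its unadjusted p in the authors' deposited table was 0.318. With 5 reads against 11 in all, a difference was not detectable at this depth. Within the library sets the log2 difference was 0.165 and 1.006.

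The alpha subunits were compared per kilobase of annotated exon. P4ha1 made up 95.7% ± 0.28 of the alpha subunit total in wild type and 97.4% ± 0.60 in heterozygote libraries (SD, n = 3 each). The P4ha2 share was 4.12% to 4.63% in wild type libraries and 1.95% to 3.08% in heterozygote libraries. The groups did not overlap, so P4ha2 was lower relative to P4ha1 as well as in itself. These shares are taken within a library and do not depend on library scaling. The alpha subunit total was 1508 ± 25.8 normalized counts per kilobase in wild type and 648 ± 39.7 in heterozygote libraries (SD, n = 3 each).

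P4hb, the beta subunit, was the most abundant gene of the group. The gene is on chromosome 11 from 120560298 to 120573253 on the minus strand (ENSMUSG00000025130). The authors' deposited group means were 26152 normalized counts in wild type and 15785 in the heterozygote group. Values per library cannot be given, because 3 sets of whole reads match the mean in each group. This difference did not pass the threshold, with a log2 fold change of -0.58 ± 0.21 (SE; adjusted p 0.0817) in the authors' deposited table. Per kilobase, the authors' means put P4hb at 6.06 times the alpha subunit total in wild type and at 8.51 times in the heterozygote group.

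**Figure D2:**
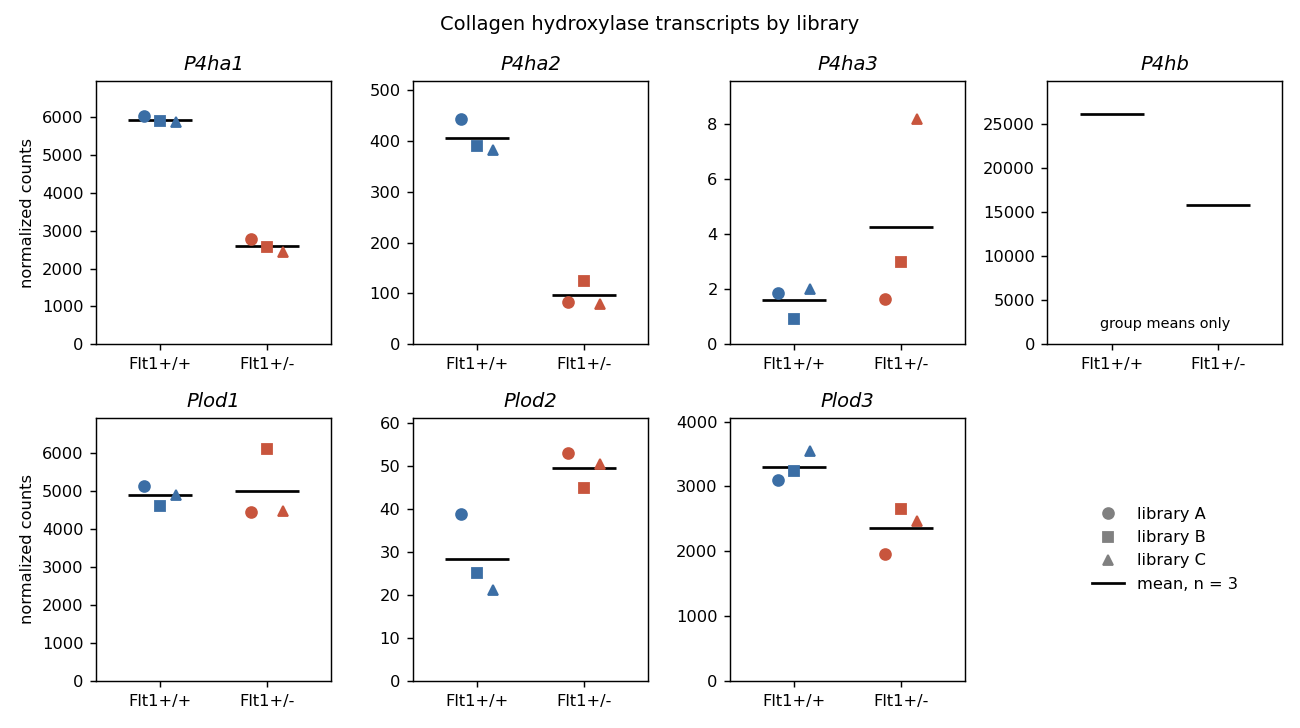
Normalized counts of the 7 collagen hydroxylase genes in each recovered library (points, shape gives the library letter) with the group mean (line, n = 3); each panel has its own axis from 0. P4ha1 and P4ha2 separate the genotypes widely, Plod3 less so, and Plod1 overlaps; P4hb has group means only.

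Plod1 encodes the lysyl hydroxylase that acts on lysines of the collagen helix. The gene spans chromosome 4 from 147909753 to 147936767 on the minus strand (ENSMUSG00000019055). Its normalized counts were 5140, 4608 and 4901 in wild type A, B and C and 4442, 6104 and 4469 in heterozygote A, B and C. Heterozygote B was above, and heterozygote A and C below, all wild type libraries. In the authors' deposited table its log2 fold change was 0.03 ± 0.15 (SE; adjusted p 0.965). limma gave 0.02 ± 0.14 (SE; adjusted p 0.959) with all libraries and -0.13 ± 0.08 (SE; adjusted p 0.343) without heterozygote B. The within-set log2 differences were -0.13 and 0.09.

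Plod2, which encodes the hydroxylase of telopeptide lysines, was low. Its position is chromosome 9 from 92542223 to 92608428 on the plus strand (ENSMUSG00000032374), and its start overlaps Gm38391 on the opposite strand, a gene with group means of 0.925 and 0 normalized counts. It had 38.8, 25.2 and 21.1 normalized counts in wild type A, B and C and 53.0, 44.7 and 50.5 in heterozygote A, B and C. The heterozygote libraries all lay above the wild type libraries, the opposite order to P4ha1 and P4ha2, on 90 reads against 147 in all. The difference did not pass the threshold, at a log2 fold change of 0.50 ± 0.25 (SE; adjusted p 0.293) in the authors' deposited table and 0.82 ± 0.29 (SE; adjusted p 0.216) by limma. It was 0.74 and 1.13 within the library sets.

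Plod3 encodes the lysyl hydroxylase that can also transfer sugars to hydroxylysine. It sits on chromosome 5 from 136987019 to 136996648 on the plus strand (ENSMUSG00000004846), and overlaps Znhit1 on the opposite strand up to position 136988021. Wild type A, B and C had 3092, 3246 and 3546 normalized counts, against 1956, 2653 and 2472 in heterozygote A, B and C. The groups did not overlap, and heterozygote A was the lowest library. Plod3 fell to 71.6% of its wild type mean in the authors' deposited test, at a log2 fold change of -0.44 ± 0.14 (SE; adjusted p 0.0338). limma did not call it, at -0.49 ± 0.13 (SE; adjusted p 0.124). Within the library sets the log2 difference was -0.70 and -0.47. With the library set as a term the difference was -0.58 and the adjusted p 0.0318. Znhit1 had means of 669 and 496 normalized counts. The sources used here do not say if counting was by strand, so reads in the shared stretch cannot be told apart.

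Per kilobase, Plod1 and Plod3 were close to equal in wild type, at a ratio of 0.923 to 1.11. In heterozygote libraries Plod1 was ahead, at a ratio of 1.21 to 1.54, and the groups did not overlap. Plod2 made up 0.259% to 0.496% of the lysyl hydroxylase total in wild type and 0.554% to 0.894% in heterozygote libraries. The lysyl hydroxylase total, 1456 ± 54.6 in wild type and 1271 ± 205 in heterozygote libraries (normalized counts per kilobase, SD, n = 3 each), overlapped between genotypes. P4ha1 stood at 1.93 to 2.11 times Plod1 per kilobase in wild type libraries and at 0.694 to 1.03 times in heterozygote libraries. The genotypes did not overlap in this ratio.

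**Figure D3:**
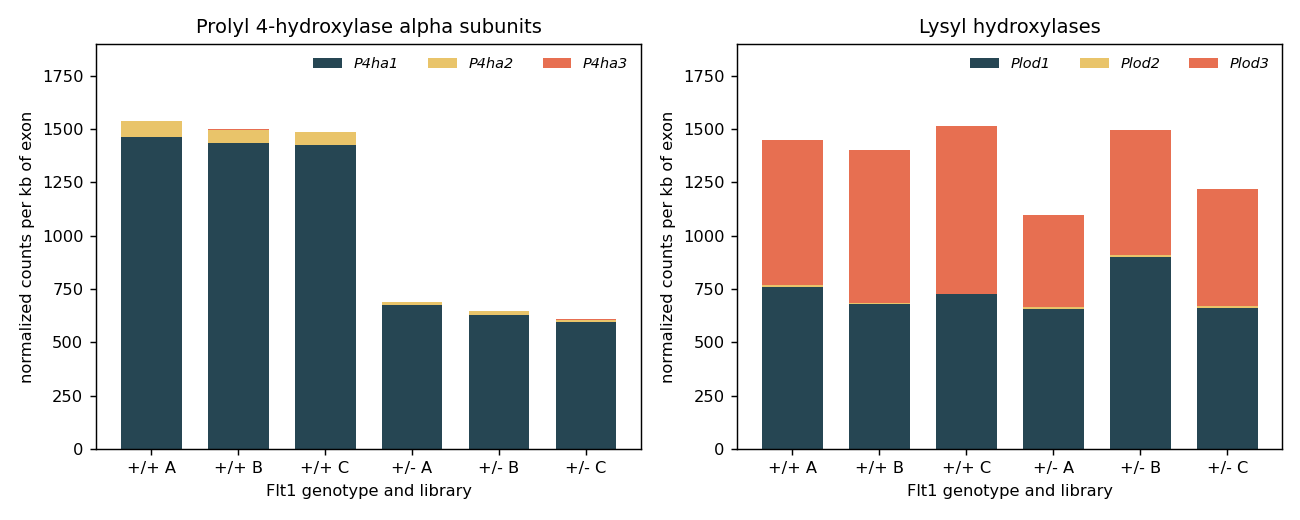
Normalized counts per kilobase of exon, stacked by gene, for the alpha subunits (left) and the lysyl hydroxylases (right) in each recovered library. The alpha subunit total lies between 1488 and 1537 in wild type and between 609 and 689 in heterozygote libraries, while the lysyl hydroxylase totals of the genotypes overlap.

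In wild type libraries the order of levels per kilobase was P4hb, P4ha1, Plod3 with Plod1, P4ha2, Plod2 and P4ha3. Plod3 at 729 ± 51.1 and Plod1 at 722 ± 39.4 normalized counts per kilobase (SD, n = 3 each) did not differ beyond their spread. In heterozygote libraries Plod1 was at 740 ± 141, P4ha1 at 632 ± 40.6 and Plod3 at 522 ± 80.0, so the spread of Plod1 reached P4ha1. P4ha2 followed at 15.4 ± 3.97 and Plod2 at 9.16 ± 0.79.

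The set of 4 hypoxia-inducible genes did not move as a unit. Its log2 ratios of group means, with a pseudocount of 1, ran from -2.07 (P4ha2) to 0.78 (Plod2), with a median of -0.58. The other 3 genes ran from -0.73 (P4hb) to 1.02 (P4ha3), with a median of -0.48. The median over all genes with an adjusted p was -0.01. Without Plod1 in the hypoxia-inducible set its median was -1.19 and that of the remaining 4 genes was -0.22. The size of the contrast thus changed with where Plod1 was placed. P4ha3, on 5 and 11 reads, was among the other genes in each version, and no version without it was computed. By enzyme, the 4 prolyl 4-hydroxylase genes ran from 23.6% (P4ha2) to 267% (P4ha3, on few reads) of their wild type means. The lysyl hydroxylases ran from 71.6% (Plod3) to 174% (Plod2, on few reads). These ranges overlapped only through P4ha3, because P4ha1 at 43.8% and P4hb at 60.4% also lay below Plod3.

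**Figure D4:**
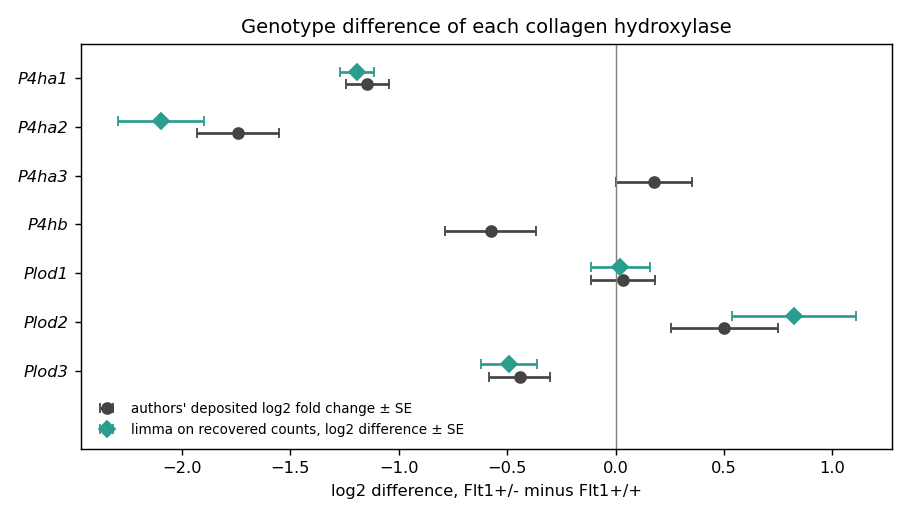
Log2 difference of each collagen hydroxylase between genotypes (negative where the heterozygote is lower) from the authors' deposited table and from limma on recovered counts, each with its standard error. P4ha1 and P4ha2 lie below -1 in both, Plod1 lies close to 0, and Plod2 and P4ha3 lie above 0 without passing the threshold.

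Across the 6 libraries, P4ha1 and P4ha2 had a Pearson correlation of 0.98 on the log2 scale. P4ha1 had 0.82 with Plod3, -0.82 with Plod2 and -0.07 with Plod1. These points share the genotype difference and the library scaling, so the values are descriptions. Among 9835 genes with symbols other than Gm or Rik names and a mean of at least 100 normalized counts, those most like P4ha1 over the 6 libraries included Rab38, Cxcr4, BC017643 and Bpgm, with correlations of 0.994 to 0.998. Cxcr4, a chemokine receptor, averaged 5238 ± 81.9 in wild type and 3205 ± 65.6 in heterozygote libraries (normalized counts, SD, n = 3 each). The genes most like Plod2 were Fam35a, Tlr6 and Trnau1ap, at 0.995 to 0.999. These are the highest of 9836 genes over 6 libraries, and Plod2 had only 21 to 65 reads per library, so nothing is read from them.

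The HIF-linked setting was described with 24 HIF targets outside the family, a list written with earlier results of these data known. In the authors' deposited test 17 of the 24 fell and 0 rose, with a median log2 ratio of -0.77. Over all genes with an adjusted p, 3.52% were lower and 2.51% higher. Ankrd37, an ankyrin repeat protein gene, had 382 ± 81.5 normalized counts in wild type and 112 ± 5.31 in heterozygote libraries (SD, n = 3 each; adjusted p 5.33e-13 in the authors' deposited table). Ldha, lactate dehydrogenase A, had group means of 22932 and 12031, and Pfkfb3, a regulator of glycolysis, 23007 and 8019. limma called 10 of the 16 targets it could test, all lower, but 1 without wild type B, wild type C or heterozygote C, and 2 without wild type A. Without heterozygote A or B it called 7 and 8. Over all genes limma called 335 with all libraries and 108, 41 and 47 without wild type A, B and C. Without heterozygote A, B and C it called 137, 372 and 64 genes. Among 19 other 2-oxoglutarate dioxygenases, relatives of the collagen hydroxylases, 2 fell and 0 rose, against the same shares over all genes. The median was -0.06. The 2 were the HIF prolyl hydroxylases Egln3, from 858 ± 195 to 252 ± 64.9, and Egln1, from 2743 ± 311 to 1473 ± 88.4 normalized counts (SD, n = 3 each). limma called neither without wild type A, wild type C or heterozygote C, omissions in which its calls over all genes also fell.

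Of 22 tested enzymes and chaperones that act on collagen beside the hydroxylases, 1 fell and 0 rose, against 3.52% lower and 2.51% higher over all genes, with a median log2 ratio of 0.14. The call was Colgalt1, which adds galactose to hydroxylysine, at 4233 ± 110 and 3000 ± 158 normalized counts (SD, n = 3 each; log2 fold change -0.48, adjusted p 6.60e-05 in the authors' deposited table). limma also called Colgalt1 (adjusted p 0.0292), but without any 1 library other than heterozygote B it called no gene of this list. Its calls over all genes also fell in those omissions. Lox, the lysyl oxidase that starts cross-links from lysine and hydroxylysine, stood at 5322 ± 657 and 6133 ± 1559, with an adjusted p of 0.743. Ppib, a collagen-folding prolyl isomerase, stood at 5920 ± 177 and 5256 ± 193, again by the authors' deposited table (adjusted p 0.387).

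Collagen chains are the main substrates of these enzymes. Of 28 tested collagen chain genes, 6 rose and 0 fell, against 2.51% higher and 3.52% lower over all genes. The median log2 ratio was 0.57. The 6 were Col5a2, Col6a1, Col6a3, Col12a1, Col14a1 and Col23a1. Col23a1, a transmembrane collagen, went from 470 ± 20.8 to 910 ± 131 normalized counts, Col12a1 from 93.0 ± 19.9 to 253 ± 41.9 and Col14a1 from 298 ± 90.4 to 746 ± 92.6 (SD, n = 3 each). The adjusted p of these 3 in the authors' deposited table was at most 1.77e-06, and limma called the same 3. It called 0 without wild type B or C, 2 without heterozygote B and 1 without any of the other 3 libraries. Over all genes its calls fell in each omission but that of heterozygote B. Col1a1 and Col1a2, the chains of type I collagen, had log2 ratios of 0.48 and 0.78 and were not called. The sum of 14 fibroblast and stromal markers, of which 4 are collagen chains counted in both lists (Col1a1, Col1a2, Col3a1 and Col5a1), was 1549 to 2121 normalized counts in wild type and 2707 to 2909 in heterozygote libraries, and Thy1 was listed at 0 in the heterozygote mean. Among 11 tested, 3 rose (Acta2, Postn and Tagln) and 0 fell. Postn had the highest group means of these markers, 926 and 1572, and so weighed most in the sum. Pdgfrb, Dcn and Pdgfra were not called, with group means of 199 and 152, 58.5 and 53.5, and 33.3 and 36.4 normalized counts. The part of stromal cells in the collagen result was not tested.

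Of 11 tested collagen-like proteins of defence and secretion, 4 fell and 0 rose, against 3.52% lower and 2.51% higher over all genes. The median log2 ratio was -0.57. Marco, a scavenger receptor with a collagen-like stalk, had group means of 43063 and 17828 normalized counts (adjusted p 1.11e-10 in the authors' deposited table). Colec12, another receptor of this kind, went from 8699 ± 135 to 6109 ± 574, and C1qb, a chain of complement C1q, from 3591 ± 357 to 2430 ± 448 (SD, n = 3 each). The fourth was C1qtnf6. limma, which could test 9, called only Colec12 (adjusted p 0.0372), 0 genes without any 1 library other than heterozygote B, and 3 without that library. Over all genes its calls also fell in those omissions and rose without heterozygote B. The neutrophil markers, of which 8 of 12 tested rose and 1 fell, had sums of 10862 to 11617 normalized counts in wild type and 12484 to 13398 in heterozygote libraries. Single neutrophil genes moved far more than this sum, with S100a8 at 47.1 and 774 and Ngp, a granule protein gene, at 11.5 and 708 normalized counts in the group means. The marker that fell, Csf3r, had the highest group means of the neutrophil markers, 7890 and 5436, and so weighed most in the sum. The B and plasma cell markers, of which 2 of 3 tested fell and 0 rose, had sums of 5838 to 6364 and 5728 to 6700, with Igkc at 358 and 15.1 in the group means. Most of these sums was Cd79b, which was not called, at 5625 and 6053 in the group means. The part of these cells in the results was not tested.

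Relatives of P4hb and the oxidases that recharge them were measured in 17 tested genes, of which 5 fell and 0 rose. The median log2 ratio was -0.22. For this list and the next, the shares over all genes were 3.52% lower and 2.51% higher. Ero1l, the oxidase of disulfide isomerases, went from 11779 ± 531 to 6812 ± 1006 normalized counts, Pdia6 from 11867 ± 1019 to 8299 ± 333, and Txndc5 from 4344 ± 102 to 3424 ± 67.0 (SD, n = 3 each). Pdia4 and Pdia5 were the other calls. limma called Ero1l and Pdia6, and 0 or 1 gene of this list when 1 library was left out. Over all genes its calls fell in every omission but that of heterozygote B. Among 13 tested genes that supply ascorbate or 2-oxoglutarate, 1 rose and 1 fell, both glucose transporters that also carry oxidised ascorbate. Slc2a1 stood at 12160 ± 2136 and 6963 ± 1376 and Slc2a3 at 460 ± 49.8 and 656 ± 53.8 (SD, n = 3 each). limma called neither, with adjusted p of 0.0847 and 0.1004. Slc2a1 and Egln3 are also counted among the HIF targets.

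**Figure D5:**
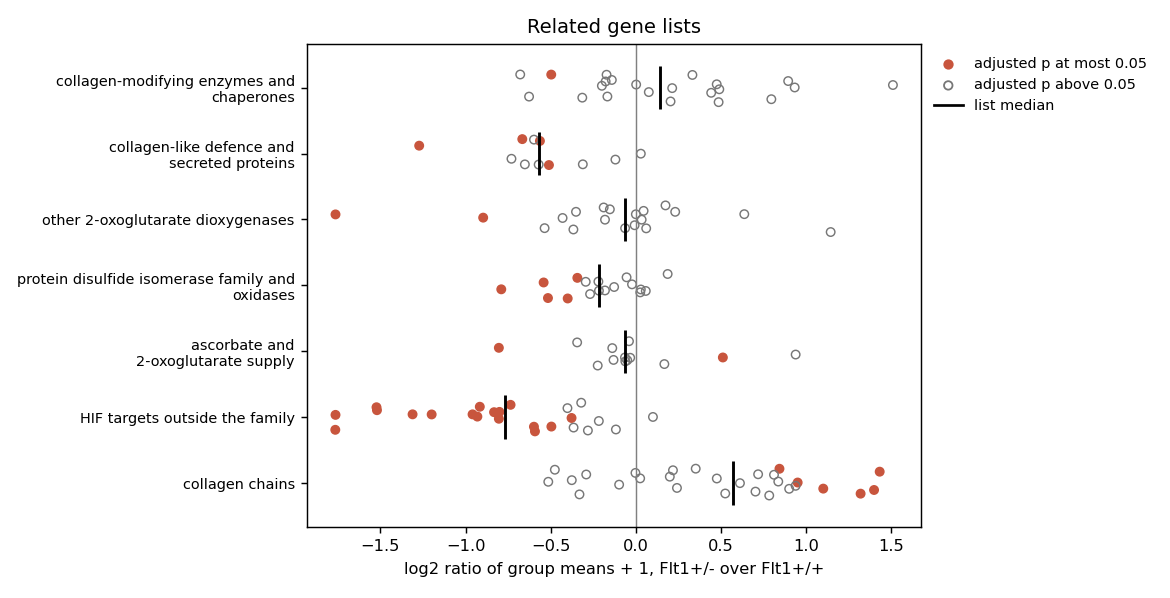
Log2 ratio of group means (pseudocount 1) for the tested genes of 7 related lists, with filled points at an adjusted p of at most 0.05 in the authors' deposited table and the list median as a line. HIF targets have the lowest median (-0.77) and collagen chains the highest (0.57).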

How the data were processed

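Libraries were stranded and rRNA-depleted, per the labels' protocols. The submitters' processing notes name FastQC, TopHat 1.0.0, Cufflinks and build mm10. How reads were counted, and whether by strand, is not given in the sources used here. Per the file headers, the deposited table has the columns of a DESeq2 results table. Its group columns hold a signal, the authors' group mean of normalized counts; that these are whole reads over a size factor is read from the values. The deposited log2 fold changes and standard errors are the authors', as are the score (fold change over standard error) and the two-sided p-values. An adjusted p is missing for 10989 genes.

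Each group mean combines whole reads of 3 libraries, every library with its own fixed weight, so weights and reads were solved from the printed digits. Genes with the highest group means, such as Lyz2 and Adgre1, were above a ceiling and were not tried. No gene that was tried lacked a solution, and size factors recomputed from recovered reads lay within 0.15% of those solved. In a test on simulated wild type means, at levels of genes already recovered, 3992 of 4000 genes came back right and 0 wrong. Genes that were not recovered had no part in it, and heterozygote means were not simulated. limma 3.58.1 (R 4.3.3, trend) was fitted on log2 recovered normalized counts with a pseudocount of 1, for genes averaging 10 or more, with Benjamini-Hochberg adjustment over all genes tested. Simulated counts with known changes were also run through it. Python 3.11.15, numpy 2.4.6 and pandas 2.3.3 were used otherwise. Exon lengths and overlaps came from GENCODE M21 (GRCm38).

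The members and gene lists were chosen with earlier results of these data known. Named genes were all members, from each list up to 3 called genes ranked by adjusted p (the 2 most abundant where fewer than 2 were called), Flt1, mt-Co2 and the genes most like P4ha1 and Plod2, of which 1 is not reported here. Other called genes of a list, Col1a1, Col1a2, Col3a1, Col5a1, Adgre1, Lyz2, Pdgfra, Pdgfrb, Dcn, Acta2, Postn, Tagln, Thy1, S100a8, Ngp, Igkc and Znhit1 were named after their values were seen. So were Csf3r, Cd79b and the macrophage markers other than Adgre1 and Lyz2. Alternatives covered the threshold, test, filter, pseudocount, scaling, library set and each library left out. Protein sequences were not used here. With 3 libraries a group the smallest exact permutation p is 0.1, so none was run.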

Additional observations from a re-analysis of the deposited data

How the results depend on the processing

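limma called P4ha1 and P4ha2 with all libraries, under every filter, pseudocount and scaling, with the library set as a term and in each omission of 1 library; the count of members called was 2 throughout, except 3 with the library set as a term, and 2 in the authors' deposited table at an adjusted p of 0.01. No member that was called changed direction under any alternative. Moves beyond the spread between libraries were, on the log2 scale, -1.10 for P4ha1 and -0.70 for Plod3 within the libraries with mt-Co2 reads, 1.14 for Plod2 within those without, and -1.74 for P4ha2 as the authors' fold change. P4ha3 went to 0.30 with a pseudocount of 10, 0.18 as the authors' fold change and 0.14 within the libraries with mt-Co2 reads. Values within library sets are log2 ratios of means here, and differences of mean log2 values where given beside each gene. The difference between hypoxia-inducible and other members, -0.10, was -0.97 without Plod1 among the inducible genes. Calls in lists fell at an adjusted p of 0.01 to 2 for collagen-like proteins, 3 for disulfide isomerases and 1 for ascorbate supply. For collagen-like proteins, disulfide isomerases, ascorbate supply, HIF targets and collagen chains, limma could test 9, 16, 11, 16 and 27 genes. The authors' deposited test covered 11, 17, 13, 24 and 28. limma called 1, 2, 0, 10 and 3. With the library set as a term, added after the data were seen, these counts were 2, 2, 1, 12 and 3. Collagen-modifying genes and dioxygenases had 1 and 2 calls by limma with and without that term. With 1 library left out, also added after the data were seen, limma called 0 to 1 collagen-modifying genes, 0 to 3 collagen-like proteins, 0 to 2 dioxygenases, 0 to 1 disulfide isomerases, 0 to 0 ascorbate supply genes, 1 to 8 HIF targets (7 without heterozygote A) and 0 to 2 collagen chains. Over all genes limma called 335 with all libraries and 41 to 372 with 1 library left out. The cause of these moves was not tested. Depth limits P4ha3 and Plod2. No paired analysis was possible because the deposited columns carry no replicate numbers.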
